A study of Mus musculus with 14 samples.

Results

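The contrast described here is the change over time in culture of mouse T helper 2 (Th2) cells that lack Argonaute genes, day 14 against day 7. It was chosen by the sample titles and holds 7 of the 14 libraries of the series, 4 of knockout cells at day 7 and 3 of knockout cells at day 14. Both groups carry the same genotype, labelled Ago134, which the series text gives as a knockout of AGO1, AGO3 and AGO4. Wild-type libraries (4 at day 7, 3 at day 14) do not enter the contrast. They add to the estimate of the spread between replicates, give the lane series term described below, and are set beside the knockout for comparison. All samples came from C57BL/6J mice. Naive CD4+ T cells were purified from spleen with beads and by cell sorting, activated, polarised towards Th2 and kept in culture until total RNA was taken for paired-end sequencing. One sentence of the series text puts the later time at 15 days, the titles at 14. Whether replicate libraries trace back to different animals or cultures is not stated, so p-values speak for the spread among these libraries alone, part of which may be technical. They give neither the alleles nor the agents used for activation and polarisation, and they name littermate mice without tying a library to an animal.

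Th2 cells help the immune system against worms and take part in allergy. They depend on the transcription factor GATA3 and secrete IL-4, IL-5 and IL-13. In culture, a naive T cell that meets antigen enters the cell cycle, takes up nutrients, builds sterols and lipids, and loses the receptors that keep a resting cell in lymphoid tissue. When the stimulus fades, cells can return to rest or, under cytokines such as IL-2, go on dividing. Argonaute proteins carry microRNAs to messenger RNAs, and AGO2, the member left intact in this genotype, is the one able to cut its target.

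T cell markers were present at both days, although some of them fell. Of 12 tested markers of CD4 T cells 0 rose and 3 fell at day 14 (25%, against 4.92% of all tested genes). These were Cd4, Cd5 and Cd6, which still had reads at day 14. Their calls ended without day 14 library 3 and with the lane series term. These markers do not test the Th2 label. Cd3d, Cd3e, Cd3g, Trac and Lck were present in all 7 libraries, and Cd3e, a chain of the T cell receptor complex, stood between 253 and 400 CPM (counts per 1e6 reads) before scaling. Ago1 had 0 reads in each of the 4 knockout day 7 libraries and 0, 0 and 2 reads at day 14, against 67 to 141 reads in the wild-type libraries. Ago3 had 39 to 69 reads per knockout library and 55 to 159 per wild-type library. Ago4 had more reads in knockout than in wild type at day 7, 62 to 103 against 11 to 26 reads per library, or 3.17 ± 0.323 against 0.617 ± 0.252 CPM (SD, n = 4 each). At day 14 it had 79 to 161 reads in knockout and 10 to 91 in wild type. The labels do not say which part of a gene was deleted, so reads left in Ago3 and Ago4 check nothing.

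Total counts ran from 23326248 to 34918513 per knockout library, over 12580 to 13043 genes with at least 1 read. No pair of libraries of a group agreed within sampling noise. A pair of libraries stood apart from their groups. Over the 1000 most variable genes, the first principal component (83.9% of the variance) placed day 7 libraries 1 to 3 at -44.13, -46.79 and -47.81 and day 7 library 4 at -31.03, with day 14 library 1 at 36.03 and day 14 libraries 2 and 3 at 65.33 and 68.41. Sequencing lanes moved with day. Ordered by the identifiers in the names of the deposited tables, lane numbers restart once, which gives 2 lane series. All knockout day 7 libraries lie in the first series and all knockout day 14 libraries in the second. Day and lane series therefore cannot be told apart within the knockout. Wild-type libraries lie in both. With a lane series term estimated from them 370 genes were called, 363 of them among the 1792 calls described below. That term assumes 1 lane effect for both genotypes, and calls that remained or ended with it are given beside the gene groups. A fit of the 7 knockout libraries alone called 1463 genes and kept 75.9% of the 1792 calls.

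Gene expression changed widely between the days. Levels are CPM of scaled library totals, and a gene is called changed where the edgeR quasi-likelihood test gave an adjusted p under 0.05 over all tested genes, 11591 in number. At day 14, 1792 genes (15.5%) were called, 1222 higher (10.5%) and 570 lower (4.92%), with a median log2 fold change of 0.02 over all tested genes. The fold change was at least 4 in 668 of the genes that rose and 181 of those that fell, and at least 32 in 122 and 33. Among genes with a mean of at least 100 CPM, 136 rose and 153 fell, so the excess of rising genes lay below that level. The levels of the 3 day 14 libraries did not overlap those of the 4 day 7 libraries in 2764 genes (23.8%), higher in 1580 (13.6%) and lower in 1184 (10.2%). Removing each library's trend over GC content and coding length turned the balance: 3363 genes were then called, 1411 higher and 1952 lower, with the median of all genes at -0.15. Without day 14 library 3 the count was 1061, without day 14 library 2 it was 1106, and without day 14 library 1, which lay 0.65 of the way from day 7 to the other day 14 libraries, it was 2335.

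Wild-type libraries gave day 14 against day 7 within each lane series. Of the 1222 genes that rose in knockout, 87.7% were higher at day 14 within the first series (1 library against 3) and 95.7% within the second (2 against 1), against 50.5% and 46.0% of all tested genes. Of the 570 that fell, 5.8% and 7.4% were higher. Between the lane series at day 7 (1 wild-type library against 3), 39.2% of the genes that rose in knockout and 31.4% of those that fell were higher in the second series, against 48.3% of all tested genes. At day 14 (2 wild-type libraries against 1), these shares were 57.9% and 33.5%, against 44.2% of all tested genes. There the second series thus leaned in the direction of the knockout change.

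Among called genes with a mean of at least 5 CPM and no overlap between the days, the 12 highest fold changes belonged mostly to genes that were almost silent at day 7. Gzmb (ENSMUSG00000015437, GRCm38 chr14:56258838-56262260, minus strand) encodes granzyme B, a protease of cytotoxic granules. Its level was 23.7, 8.62, 10.4 and 64.1 CPM in the day 7 libraries and 2786, 6432 and 12202 CPM in the day 14 libraries. The log2 fold change was 8.07 ± 1.05 (SE; edgeR adjusted p = 0.000215), and the lowest day 14 library stood far above every day 7 library. Gzma, the granzyme A gene, followed from 1.85, 1.08, 1.00 and 4.03 CPM to 48.0, 188 and 439 CPM (log2 fold change 6.84 ± 1.01, edgeR adjusted p = 0.0005). Bpifb4 (ENSMUSG00000074665, chr2:153938212-153964101), which encodes a protein of the lipid-binding BPI family, had 0 reads in all day 7 libraries and 11.5, 22.2 and 13.3 CPM at day 14. Against a floor of 3 reads over the day 7 group it was at least 553-fold higher.

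F2rl2, a protease-activated receptor gene, rose from 0.22 ± 0.13 CPM (SD, n = 4) to 80.2 ± 58.8 CPM (SD, n = 3). Pilrb1, an activating paired immunoglobulin-like receptor gene, rose from 0.119 ± 0.217 to 26.6 ± 13.6 CPM, although reads of its close relatives may be shared. Aqp9, a channel for water and glycerol, rose from 0.376 ± 0.300 to 45 ± 24.6 CPM. Mapk13, a p38 kinase gene, rose from 0.239 ± 0.149 to 34.0 ± 16.4 CPM, and Mcf2l, which encodes a guanine nucleotide exchange factor, from 0.045 ± 0.052 to 24.0 ± 22.1 CPM. Iqgap3, a scaffold gene of dividing cells, rose from 0.163 ± 0.195 to 20.9 ± 19.1 CPM. Pigz (GPI anchor synthesis), Drc1 (a ciliary protein) and Ccn3 (a secreted matrix protein) also rose, with log2 fold changes of 7.44, 7.16 and 7.27. The rule of choice required that the day 14 libraries lie wholly above the day 7 libraries, so that separation is no result. In each of these genes day 14 library 1 was the lowest of the 3. All 12 except Ccn3 (adjusted p = 0.485) were still called with the lane series term, by edgeR.

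The 12 strongest falls, chosen in the same way, included surface, adhesion and signalling genes. Cd9, a tetraspanin of the cell surface, stood at 280.4, 293, 350.2 and 314 CPM at day 7 and at 44.9, 12.1 and 10.6 CPM at day 14 (log2 fold change -3.78 ± 0.58, edgeR adjusted p = 0.000645). Timp2, an inhibitor of matrix proteases, went from 86.4, 67.9, 127 and 264 CPM to 14.1, 10.6 and 11.2 CPM (log2 fold change -3.51 ± 0.51, edgeR adjusted p = 0.00046). Fcgrt, the neonatal Fc receptor gene, fell from 53.6 ± 9.58 to 2.46 ± 1.79 CPM. That the groups did not overlap in these genes was required by the choice. Itga4 (integrin alpha 4), Actn1 (an actin crosslinker), Fgfr1 (a growth factor receptor) and Grb7 (an adaptor of receptor kinases) fell by 3.51, 3.74, 3.65 and 3.37 on the log2 scale. Dapl1, Sh3tc1 and Rflnb fell by 4.40, 3.80 and 3.55. Ccl5, a chemokine gene, and Ms4a4c, which has close paralogs, fell by 3.58 and 4.26, and in both day 7 library 4 was several times higher (68.8 and 52.6 CPM) than day 7 libraries 1 to 3, which ran from 7.26 to 14.8 CPM for Ccl5 and from 3.28 to 6.52 CPM for Ms4a4c. With the lane series term the edgeR calls of Ms4a4c (adjusted p = 0.189), Ccl5 (0.219) and Rflnb (0.0524) ended.

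**Figure D1:**
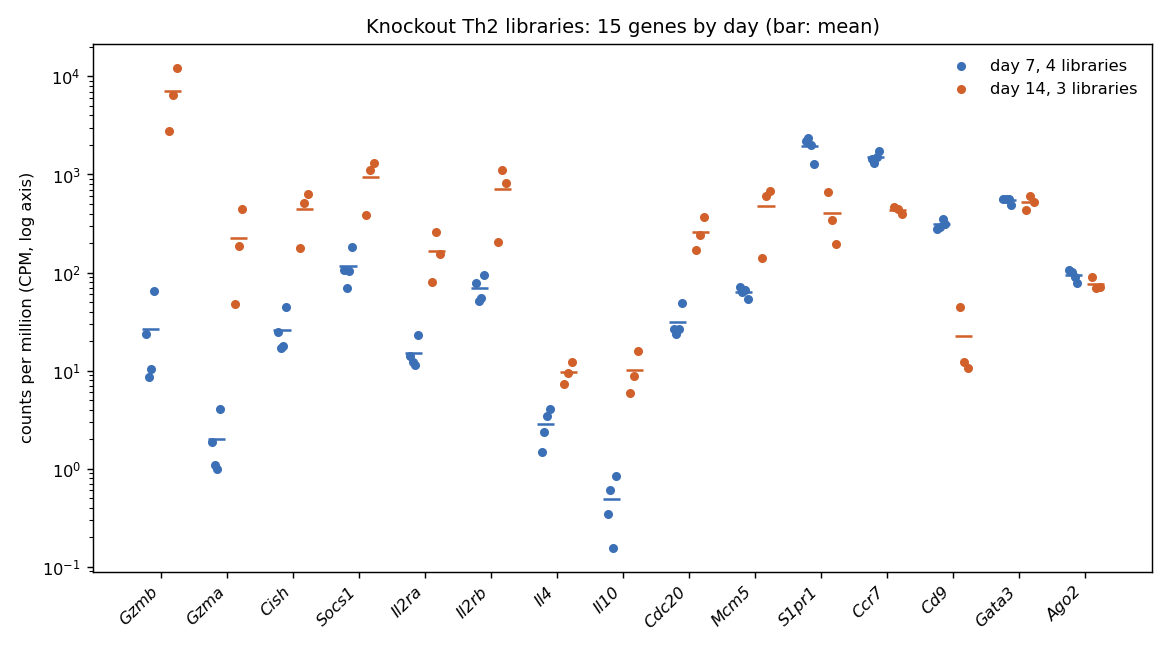
Level of 15 genes in each knockout library, in CPM on a log axis; blue points are the 4 day 7 libraries, orange points the 3 day 14 libraries and short bars the group means. Gzmb spans 8.62 to 64.1 CPM at day 7 and 2786 to 12202 CPM at day 14, while Gata3 and Ago2 overlap between the days.

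Genes of cell division rose together. Of 34 tested genes of G2 and M phase, 29 rose and 0 fell (median log2 fold change 3.50). Of 40 genes of DNA replication and S phase 24 rose and 0 fell (median 1.23). The rises are 85.3% and 60% of the lists, against 10.5% of all tested genes. Cdc20, which activates the ubiquitin ligase that starts anaphase, stood at 26.8, 23.5, 26.4 and 49.2 CPM at day 7 and at 172, 239 and 369 CPM at day 14 (log2 fold change 3.05 ± 0.41, edgeR adjusted p = 0.000283). Birc5, the survivin gene of the chromosomal passenger complex, rose from 1.76, 0.845, 1.19 and 5.14 CPM to 38.2, 72.1 and 129 CPM, and Cdca8, which encodes its partner borealin, from 5.11 ± 4.68 to 100.1 ± 48.0 CPM. Plk1 and Aurka, kinases of mitosis, rose by 3.46 and 3.37 on the log2 scale. In all 5 genes every day 14 library was above every day 7 library, and day 7 library 4 was the highest of its group. The 5 were named for the smallest adjusted p of their list, which favours such separation, so it is no further result. It held in 13.6% of all tested genes.

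In the replication genes Mcm5 and Uhrf1, day 14 library 1 lay well below day 14 libraries 2 and 3. Mcm5, a subunit of the replicative helicase, stood at 71.9, 63.9, 66.5 and 53.4 CPM at day 7 and at 140.2, 603 and 680.5 CPM at day 14 (log2 fold change 2.89 ± 0.45, edgeR adjusted p = 0.000716). Uhrf1, which helps to copy DNA methylation, went from 21.4, 14.4, 10.9 and 12.8 CPM to 39.9, 201 and 203 CPM (log2 fold change 3.32). Tk1 (thymidine kinase), Lig1 (DNA ligase I) and E2f1 (an activator of S phase genes) rose by 5.33, 2.57 and 2.01.

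The levels of both lists by library are shown in the plot of gene lists by library. For each library, the median log2 difference from the knockout day 7 mean over the G2 and M phase list was -0.35, -0.17, -0.19 and 0.74 at day 7 and 3.19, 3.34 and 3.71 at day 14. In wild type it was -0.34 to -0.20 at day 7 and 0.05, -0.38 and 3.39 in day 14 libraries 1, 2 and 3. So all 3 knockout day 14 libraries were high, and 1 of 3 wild-type ones. Wild-type day 14 libraries 1 and 3, at 0.05 and 3.39, are both in the second lane series. Within the first lane series 16 of 34 genes of the list were higher at day 14 in wild type (median -0.10), and within the second 31 of 34 (median 1.52). Between the wild-type lane series, 20 of 34 were higher in the second at day 7 (median 0.10) and 33 of 34 at day 14 (median 1.66). With the lane series term 2 of the 29 calls in G2 and M phase (Cdc20 and Cdca8) and 2 of the 24 in S phase (E2f1 and Lig1) remained. The count in G2 and M phase was 19 without day 7 library 3, and that in S phase 14 without day 14 library 3. In bulk RNA, a larger share of dividing cells and more of these transcripts per cell cannot be told apart.

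Because the 2 lists moved as blocks, their promoters are shown. Mitotic genes are known for CCAAT boxes, bound by NF-Y, and for the cell cycle homology region (CHR), and S phase genes for E2F sites. The sequences are the 250 bases before the RefSeq start of the gene (build GRCm38.p6), in the direction of transcription, with the searched letters in capitals. In the first 3, the capitals mark CCAAT or its complement ATTGG, and TTTGAA (CHR) or its complement TTCAAA. They are Cdc20 (chr4:118437344-118437593, minus strand), Cdca8 (chr4:124936918-124937167, minus) and Plk1 (chr7:122159185-122159434, plus).
Cdc20: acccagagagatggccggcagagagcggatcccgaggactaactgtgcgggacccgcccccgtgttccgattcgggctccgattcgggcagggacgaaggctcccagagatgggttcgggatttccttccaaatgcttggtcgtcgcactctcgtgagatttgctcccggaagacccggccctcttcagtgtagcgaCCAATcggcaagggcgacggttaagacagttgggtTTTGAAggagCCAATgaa
Cdca8: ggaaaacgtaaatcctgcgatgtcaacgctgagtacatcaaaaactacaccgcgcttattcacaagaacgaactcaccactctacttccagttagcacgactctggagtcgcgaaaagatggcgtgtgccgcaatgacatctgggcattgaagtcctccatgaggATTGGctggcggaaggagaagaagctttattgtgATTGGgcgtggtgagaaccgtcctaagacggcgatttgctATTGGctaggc
Plk1: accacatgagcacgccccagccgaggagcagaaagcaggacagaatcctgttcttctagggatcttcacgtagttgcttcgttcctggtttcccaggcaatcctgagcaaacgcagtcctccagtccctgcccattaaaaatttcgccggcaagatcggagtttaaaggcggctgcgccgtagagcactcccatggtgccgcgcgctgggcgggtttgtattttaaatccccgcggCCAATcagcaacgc

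In the replication genes Mcm5 (chr8:75109259-75109508, plus strand) and Uhrf1 (chr17:56304063-56304312, plus, the second of its listed starts), the capitals mark E2F letters, TTTGGCGC or TTTCGCGC on either strand. The window of the first listed start of Uhrf1, 56303087 to 56303336, holds no such match. The 2 matches in Mcm5 lie on opposite strands and overlap.
Mcm5: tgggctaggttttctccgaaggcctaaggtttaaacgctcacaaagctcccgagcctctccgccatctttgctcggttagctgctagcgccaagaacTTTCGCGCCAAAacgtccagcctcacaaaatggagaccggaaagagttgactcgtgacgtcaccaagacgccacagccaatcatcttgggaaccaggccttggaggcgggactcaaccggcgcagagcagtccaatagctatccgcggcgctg
Uhrf1: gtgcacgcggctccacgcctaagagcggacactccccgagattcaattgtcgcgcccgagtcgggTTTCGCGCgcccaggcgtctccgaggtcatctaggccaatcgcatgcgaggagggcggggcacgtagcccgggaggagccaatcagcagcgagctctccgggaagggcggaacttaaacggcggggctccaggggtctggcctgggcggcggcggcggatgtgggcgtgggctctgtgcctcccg

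Cdc20 holds 2 CCAAT boxes and 1 CHR, Cdca8 3 CCAAT boxes, and Plk1 1. RefSeq starts were found for 30 genes of the G2 and M phase list and 31 of the S phase list. A CCAAT box stood in 26 of 33 windows of the G2 and M phase list (78.8%), in 55.6% of those of the S phase list, in 35.3% of windows of tested genes and in 33.8% of all 32851 windows. The CHR letters stood in 36.4%, 11.1%, 10.3% and 16%, and the E2F letters in 3.0%, 16.7%, 1.3% and 0.7%, in the same order. Birc5, whose fold change was the largest of the named mitotic genes, holds none of the 3 motifs in its window, nor do E2f1, Lig1 and Tk1. A match describes letters in the window and is no measurement of binding. Only the letters given above were searched, and no bases after the start. A window without a match therefore does not show that a gene lacks such a site.

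**Figure D2:**
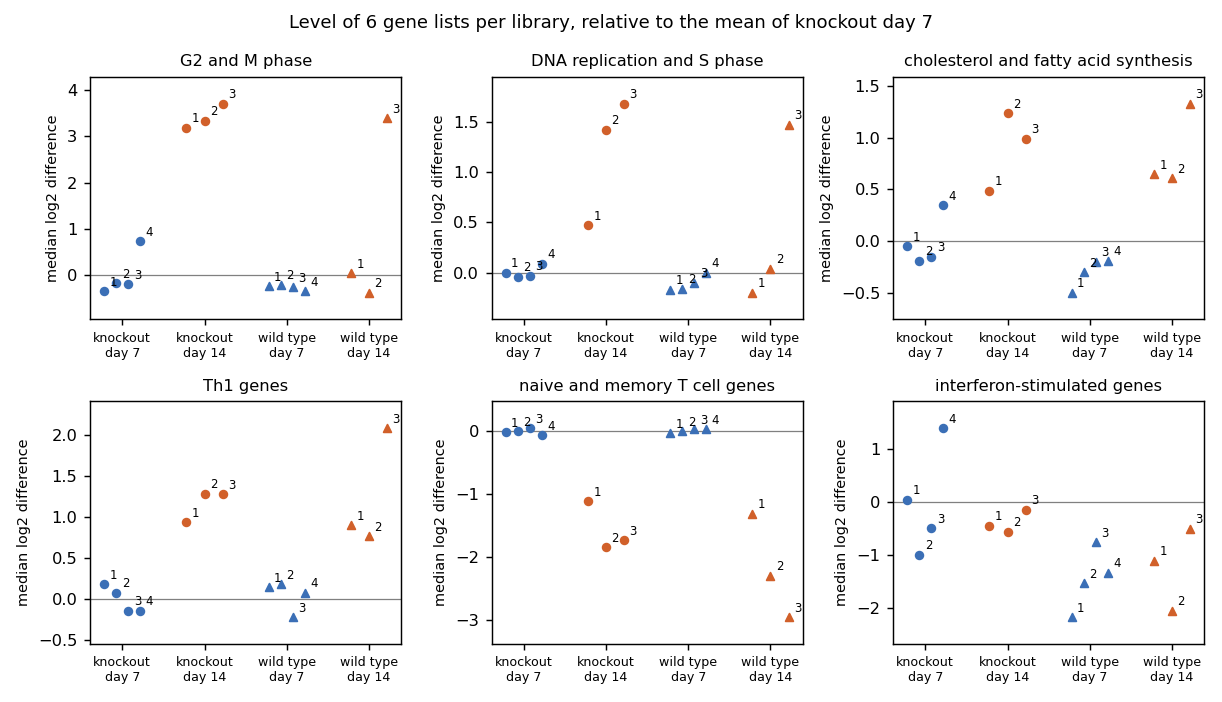
Level of 6 gene lists in each library: the median over the list of the log2 difference from the mean of knockout day 7, with circles for knockout, triangles for wild type, blue for day 7, orange for day 14 and the replicate number beside each point. The G2 and M phase list stands at 3.19 to 3.71 in the knockout day 14 libraries and at 3.39 in 1 of 3 wild-type day 14 libraries, and the interferon list stands highest in knockout day 7 library 4.

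Genes of growth control and arrest moved less uniformly. Of 21 inhibitors of cyclin-dependent kinases and targets of p53, 0 fell and 8 rose (4 and 8 without day 14 library 1). These 8 are 38.1% of the list, against 10.5% of all tested genes. They include Cdkn2c, an inhibitor of CDK4 and CDK6, which rose from 12, 13.3, 14.2 and 15.5 CPM to 35.6, 32.2 and 45.3 CPM, and the p53 targets Zmat3 (log2 fold change 2.32) and Phlda3 (2.53). These 3 were called also with the lane series term. In the network of MYC and its partners, 3 of 11 tested genes rose (27.3%) and 1 fell (9.1%). Over all tested genes the shares were 10.5% and 4.92%. Mxd1, an antagonist of MYC, rose from 18.5, 11.5, 12.5 and 20.7 CPM to 99.3, 105 and 77.6 CPM (log2 fold change 2.57 ± 0.25, edgeR adjusted p = 4.37e-05). It stayed called with the lane series term, as did no other of the 4 calls in the list. Mxd3 rose by 4.60 and Mycn by 2.53. Myc itself stood at 632, 663, 574 and 509 CPM and then at 706, 1131 and 973 CPM (log2 fold change 0.66, edgeR adjusted p = 0.0489), a call that ended when any knockout library except day 14 library 1 was left out (up to 0.226) and with the lane series term (0.113). Of 30 genes of ribosome biogenesis and MYC-linked growth, 2 rose and 1 fell, a share below that of all genes. One of these was Odc1, the first enzyme of polyamine synthesis, at 94.4 ± 22.4 and then 263 ± 70.9 CPM. Wdr12, a factor of the large ribosomal subunit, fell from 223 ± 41.9 to 75.8 ± 38.1 CPM, a call lost with the lane series term.

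The Th2 list held 32 tested genes, of which 14 rose (43.8%, against 10.5% of all tested genes) and 2 fell (6.2%, against 4.92%). The median log2 fold change was 1.32. Il10 and Cish were the 2 calls that remained with the lane series term, and without day 14 library 3 the counts were 7 and 1. Gata3 stood at 561, 564, 568 and 484 CPM at day 7 and at 437, 599.6 and 522 CPM at day 14. The days overlapped (log2 fold change -0.07 ± 0.16, edgeR adjusted p = 0.848), and the sign turned to 0.18 with the lane series term and to 0.04 without day 14 library 1. Il4, the cytokine gene that drives Th2 polarisation, stood at 1.46, 2.36, 3.48 and 4.03 CPM and then at 7.30, 9.43 and 12.4 CPM. It rose (log2 fold change 1.77 ± 0.50, edgeR adjusted p = 0.0254), but the call ended without day 7 library 1 or 2 or day 14 library 2 or 3 (up to 0.105) and with the lane series term (log2 fold change 1.70, adjusted p = 0.257).

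Il5, whose product supports eosinophils, had 6 reads in all at day 7 and 196 at day 14, or 0.0861, 0, 0.0313 and 0.133 CPM and then 0.384, 2.50 and 3.23 CPM (log2 fold change 5.05 ± 1.06, edgeR adjusted p = 0.00804). With the lane series term its log2 fold change was 4.98, no longer called (0.138). Il13 had 0 reads at day 7 and 6 at day 14 and was too rare to test. Il10, a cytokine that restrains immune responses, stood at 0.344, 0.608, 0.157 and 0.841 CPM and then at 5.97, 8.73 and 16 CPM (log2 fold change 4.40 ± 0.71, edgeR adjusted p = 0.000901). All day 14 libraries were above all day 7 libraries in Il4, Il5 and Il10, as in 13.6% of all tested genes. The highest level of the 3 genes was 16 CPM. Il24, a cytokine gene of the IL-10 family, rose by 7.93 on the log2 scale. Rnf128, a ubiquitin ligase gene linked to anergy, rose from 34.6 ± 11.6 to 405 ± 96.2 CPM, and Dusp10, a phosphatase gene that acts on JNK and p38, fell from 535 ± 34.6 to 189 ± 64.5 CPM. The calls of these last 3 genes were lost with the lane series term.

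Of the lists for other helper fates, those for Th1 and regulatory T cells held mostly rising calls. Of 16 tested Th1 genes 10 rose (62.5%, against 10.5% of all tested genes) and 1 fell (6.2%, against 4.92%). The median was 2.10, and 5 of these calls remained with the lane series term. Eomes, a T-box factor of cytotoxic cells, stood at 1.85, 2.57, 1.19 and 1.02 CPM and then at 10.8, 40.4 and 31.4 CPM (log2 fold change 4.05 ± 0.47, edgeR adjusted p = 0.000112). Cxcr3, a chemokine receptor of Th1 cells, went from 6.32, 5.88, 6.01 and 1.73 CPM to 50.6, 74.6 and 86.6 CPM. The receptor chains Il12rb1 (for IL-12) and Il18rap (for IL-18) rose by 2.24 and 4.66, and the factor Hlx by 2.67. These 5 genes were the ones still called with the lane series term, and none overlapped between the days. Their choice by the smallest adjusted p favours such separation, which held in 13.6% of all tested genes. Tbx21, the main Th1 factor, was not called (log2 fold change -1.70, edgeR adjusted p = 0.13), and the 1 gene that fell was Ccl5.

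Among 16 genes of regulatory T cells, 7 rose (43.8%, against 10.5% of all tested genes) and 2 fell (12.5%, against 4.92%). The median was 0.76, with 5 calls left under the lane series term. Ikzf4, which encodes the factor Eos, stood at 6.93, 5.24, 3.57 and 6.24 CPM and then at 24.7, 150.0 and 116 CPM. Itgae, the integrin chain CD103, rose from 0.379 ± 0.371 to 17.6 ± 15.1 CPM. Gpr83, a receptor gene, fell from 4.29 ± 0.678 to 1.43 ± 0.270 CPM. Foxp3 was not called (log2 fold change 0.03, edgeR adjusted p = 0.98). Of 8 genes of follicular helper cells, Tox2 rose by 4.57, Tox fell by 1.88 and 1 more fell, with no call left under the lane series term. The rise is 12.5% of the list and the falls are 25%, against 10.5% and 4.92% of all tested genes. Of 4 tested Th17 genes none was called by edgeR. The 2 most abundant were Stat3 (464 ± 81.9 and 612 ± 126 CPM) and Batf (63.1 ± 25.7 and 83.8 ± 22.8 CPM), and both overlapped between the days.

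Among 14 cytotoxic granule genes 5 rose (35.7%, against 10.5% of all tested genes) and 2 fell (14.3%, against 4.92%). With the lane series term 4 calls remained. Besides Gzma and Gzmb these were Nkg7, a granule membrane protein, at 0.990, 0.811, 0.627 and 0.841 CPM and then 4.43, 20.4 and 29.7 CPM, and Ctsw, a cathepsin of cytotoxic cells, at 10.8, 8.89, 12.3 and 11 CPM and then 28.7, 114 and 178 CPM. Prf1, the perforin gene, was not called (log2 fold change 1.58, edgeR adjusted p = 0.057). Gzma and Eomes are also markers of natural killer and innate lymphoid cells. The 12 markers of those cells summed to 8.06 to 21.3 CPM at day 7 and 161 to 523 CPM at day 14. Of the latter, Gzma made 53.9 to 417 and Il1rl1 47.1 to 104 unscaled CPM. Of the defining receptor genes, Ncr1, Klra4, Klra8, Klrc1 and Klrc2 had 0 reads in all 7 libraries, and Klrb1c, Klra1 and Klra7 had 1 to 3 reads in all.

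Genes of the IL-2 receptor alpha and beta chains, of some other cytokine receptors and of several feedback inhibitors rose. Receptors of the common gamma chain family bind IL-2, IL-4, IL-7 and related cytokines. They signal through JAK kinases and STAT factors, which in turn switch on the SOCS inhibitors. Of 13 genes of this family and of other cytokine receptors 5 rose and 0 fell (8 and 1 without day 14 library 1). The 5 are 38.5% of the list, against 10.5% of all tested genes. Il2ra, the IL-2 receptor alpha chain, stood at 14.1, 12.4, 11.3 and 22.9 CPM and then at 79.3, 260.3 and 155 CPM (log2 fold change 3.44 ± 0.57, edgeR adjusted p = 0.00111). Il2rb, the beta chain, stood at 77.6, 51.6, 55.6 and 95.4 CPM and then at 206, 1111 and 826 CPM (log2 fold change 3.35 ± 0.43, edgeR adjusted p = 0.000187). Crlf2, a receptor for TSLP, and Il3ra rose by 1.15 and 1.70. Il4ra (log2 fold change 0.60, adjusted p = 0.20) and Il2rg (-0.59, adjusted p = 0.086) were not called by edgeR. With the lane series term Il2rb and Crlf2 stayed called and Il2ra (adjusted p = 0.125) did not.

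Among the inhibitors, Cish, Socs1, Socs2 and Socs3 rose, and Socs4 to Socs7 were not called. Cish stood at 24.9, 17, 18 and 44.8 CPM and then at 176, 516 and 639 CPM (log2 fold change 4.08 ± 0.43, edgeR adjusted p = 6.02e-05). Socs1 stood at 107, 69.9, 105 and 181 CPM and then at 387, 1121 and 1310.1 CPM (log2 fold change 3.02 ± 0.38, edgeR adjusted p = 0.000179). Socs3 stood at 22.5, 14.9, 14.6 and 12.6 CPM and then at 56.0, 228 and 143 CPM. All 3 remained called with the lane series term and were lowest at day 14 in library 1. They did not overlap between the days, which their choice by the smallest adjusted p favours (13.6% of all tested genes were wholly higher). Socs2 rose by 3.19 on the log2 scale, a call lost with that term. In the list of 21 JAK, STAT and SOCS genes 5 rose (23.8%, against 10.5% of all tested genes) and 1 fell (4.8%, near 4.92%). The remaining rise was Jak3 and the fall Stat5b, and the median log2 fold change of the list was -0.09.

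Genes of naive and memory T cells mostly fell. Of 24 tested, 18 fell (75%, against 4.92% of all tested genes) and 2 rose (8.3%, against 10.5%). The median log2 fold change was -1.53, and 10 falls remained with the lane series term. Klf3, a Kruppel-like factor, stood at 108, 114, 139 and 150.4 CPM and then at 30.1, 12.9 and 11 CPM, and Ly6c1 fell by 3.30 on the log2 scale. In both genes day 14 library 1 was the highest of the day 14 libraries, and both were called with the lane series term. Over the list, the median log2 difference from the day 7 mean was -1.11, -1.84 and -1.73 in the day 14 libraries. In wild type the same list stood at -1.31, -2.29 and -2.95 at day 14. The median change of the list in wild type was -2.35 within the first lane series and -2.28 within the second.

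Receptors that guide migration were exchanged. Of 18 chemokine and related receptors 8 rose (44.4%, against 10.5% of all tested genes) and 4 fell (22.2%, against 4.92%). With the lane series term the counts were 2 and 2. Ccr7, the receptor for entry into lymph nodes, stood at 1432, 1324, 1494 and 1722 CPM and then at 466, 448 and 398 CPM (log2 fold change -1.77 ± 0.31, edgeR adjusted p = 0.0015). S1pr1, the receptor through which T cells leave lymph nodes, stood at 2218, 2361, 2015 and 1285 CPM and then at 662, 346 and 195 CPM (log2 fold change -2.30 ± 0.46, edgeR adjusted p = 0.0036). Both were abundant at day 7 and far lower in all day 14 libraries. Gpr183, which guides cells by oxysterols, went from 453, 534, 557 and 494 CPM to 107, 57.7 and 63.8 CPM. Ccr10, a receptor of skin-homing cells, rose from 0.367 ± 0.178 to 7.05 ± 1.07 CPM. The 4 calls left with the lane series term were Ccr7, Gpr183, Ccr10 and Cxcr3. S1pr1 was not among them (adjusted p = 0.101). Of 2 tested chemokine ligand genes, Ccl5 fell. Of 13 integrin genes 3 rose (23.1%, against 10.5% of all tested genes) and 2 fell (15.4%, against 4.92%), and 4 of the 5 calls remained with the lane series term. Itgb2, the beta chain of LFA-1, rose from 823 ± 106 to 1525 ± 309 CPM and kept its call with the lane series term.

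Costimulatory receptors rose more often than they fell. Of 20 members of the TNF receptor family and its ligands 10 rose and 3 fell (6 and 2 without day 14 library 3). The 10 and 3 are 50% and 15% of the list, against 10.5% and 4.92% of all tested genes. Tnfrsf9, or 4-1BB, stood at 13.6, 7.5, 9.62 and 55.4 CPM and then at 141, 333 and 507 CPM (log2 fold change 3.93 ± 0.81, edgeR adjusted p = 0.0046). Tnfrsf8, or CD30, went from 0.675 ± 0.385 to 12.1 ± 9.83 CPM, and the ligand gene Tnfsf14 from 2.04 ± 0.632 to 10.7 ± 1.81 CPM. Fasl rose by 1.43, and Tnfrsf25 and Tnfrsf26 fell by 1.10 and 1.05. Tnfrsf8 and Tnfsf14 remained with the lane series term. Among 12 inhibitory receptors 0 rose and 3 fell (25%, against 4.92% of all tested genes). None of these calls remained with the lane series term. No call was left there without day 14 library 3, 1 was left without day 7 library 1 or 3, and 2 genes rose beside the 3 that fell without day 7 library 4. Cd5, a brake on T cell receptor signals, stood at 407, 301, 352 and 535 CPM and then at 205, 227 and 188 CPM (edgeR adjusted p = 0.0135). Its call ended without day 14 library 3 (0.0668) and with the lane series term (0.216).

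Calls among T cell activation genes were all rises, and those among genes of the receptor were mostly falls. Of 19 activation genes 11 rose (57.9%, against 10.5% of all tested genes) and 0 fell. With the lane series term only 1 call, Irf8, remained. The count was 5 to 7 without day 7 library 1, 2 or 3 or without day 14 library 2 or 3. Irf8, an interferon regulatory factor, stood at 6.32, 3.11, 4.26 and 6.33 CPM and then at 19.2, 44.2 and 43.3 CPM. Slc7a5, a transporter of large amino acids that activated T cells need, stood at 34.3, 20.5, 18.1 and 22.4 CPM and then at 39.0, 187 and 70.0 CPM, with day 14 library 1 close to day 7. Of 31 genes of the T cell receptor complex and its proximal signalling 1 rose (3.2%, against 10.5% of all tested genes) and 4 fell (12.9%, against 4.92%). One call was left without day 14 library 3 and none with the lane series term. Cd4 fell from 362, 305, 244 and 396 CPM to 145, 231 and 166 CPM (log2 fold change -0.85 ± 0.21, edgeR adjusted p = 0.0132), and Cd6 by 0.90. Both calls ended without day 14 library 3 (0.0646 and 0.0637) and with the lane series term (0.31 and 0.20). Of 22 immediate early genes 2 rose (9.1%, against 10.5% of all tested genes) and 4 fell (18.2%, against 4.92%). Dusp6 rose by 2.40, and Zfp36, which destabilises cytokine mRNAs, fell from 364 ± 127 to 101 ± 9.03 CPM. Dusp1 and Dusp2, phosphatases of MAP kinases, fell by 1.39 and 1.29, and none of these 4 was called with the lane series term.

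Part of the genes for making sterols, serine and folate carriers rose. Of 33 genes of cholesterol and fatty acid synthesis 13 rose and 1 fell (median log2 fold change 1.00). The 13 and 1 are 39.4% and 3% of the list, against 10.5% and 4.92% of all tested genes. Lss, the enzyme that closes the sterol rings, stood at 69.4, 53.6, 51.2 and 76.7 CPM and then at 92.6, 268 and 247 CPM (log2 fold change 1.69 ± 0.29, edgeR adjusted p = 0.00124). Mvd, of the mevalonate pathway, rose from 74.5 ± 35.1 to 215 ± 63.0 CPM, Tm7sf2, a sterol reductase, from 9.98 ± 3.24 to 33.5 ± 13.6 CPM, and Fads2, a fatty acid desaturase, from 9.60 ± 8.77 to 104 ± 61.7 CPM. The gene that fell was Acss2, which makes acetyl-CoA from acetate, from 194 ± 38.9 to 93.5 ± 12.5 CPM. This count was among the least stable: 5 rose without day 7 library 2 or 3, 4 without day 14 library 2 and 6 without day 14 library 3, and Lss alone stayed called with the lane series term. Of 7 sterol export genes 2 fell (28.6%, against 4.92% of all tested genes), among them Apoe (19.5 ± 5.77 to 3.67 ± 1.09 CPM). No call was left there with the lane series term, 1 was left without any 1 of day 7 libraries 1 to 3 or day 14 libraries 2 and 3, and 4 were made without day 14 library 1.

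Of 20 genes of the amino acid response and amino acid transport 12 rose and 1 fell (median 0.94), and 7 and 1 without day 14 library 2. The 12 and 1 are 60% and 5% of the list, against 10.5% and 4.92% of all tested genes. Asns, which makes asparagine, stood at 20.9, 20.3, 18.7 and 36.1 CPM and then at 99.1, 144 and 194 CPM (log2 fold change 2.60 ± 0.43, edgeR adjusted p = 0.0011). Psat1, of serine synthesis, stood at 24.7, 23.2, 25.3 and 28.1 CPM and then at 64.5, 163 and 224 CPM, and Mthfd2, of mitochondrial folate metabolism, rose by 1.69. These 3 stayed called with the lane series term. Phgdh, the first enzyme of serine synthesis, rose by 0.97. Trib3, a pseudokinase also induced by amino acid shortage, went the other way, from 163 ± 15.2 to 72.8 ± 3.64 CPM. Of 25 genes of the unfolded protein response 5 rose (20%, against 10.5% of all tested genes) and 0 fell. Calls numbered 10 without day 14 library 1. The 5 include Xbp1 (log2 fold change 1.22), Herpud1 (0.91), Sdf2l1 (1.71) and Edem1 (0.73). None of the 5 was called with the lane series term.

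Genes of glycolysis and the hypoxia response were called in both directions. Of 37 tested, 4 rose (10.8%, against 10.5% of all tested genes) and 4 fell (10.8%, against 4.92%), and the total ranged from 3 to 15 calls when single knockout libraries were left out (lowest without day 7 library 2 or day 14 library 3, highest without day 14 library 1). Eno2, an enolase, rose from 2.90 ± 0.814 to 9.99 ± 1.71 CPM and was the 1 call left with the lane series term. Slc16a3, a lactate exporter, stood at 7.96, 6.52, 5.89 and 10.4 CPM and then at 7.86, 71.0 and 55.6 CPM, so day 14 library 1 lay within the range of day 7. Ndrg1 fell by 0.74. No gene was called by edgeR among 48 of oxidative phosphorylation (median 0.13), such as Atp5a1 (2301 ± 111 and 1995 ± 398 CPM), or among 45 of the mitochondrial ribosome (median 0.02), such as Mrps30 (233 ± 31.2 and 179 ± 28.6 CPM). Of 28 lysosome and autophagy genes 2 rose (7.1%, against 10.5% of all tested genes) and 2 fell (7.1%, against 4.92%). There were from 2 calls in all without day 14 library 2 or 3 to 9 without day 14 library 1 and 6 without day 7 library 4. None of the 4 calls remained with the lane series term. Ctsd, the cathepsin D gene, fell from 2614 ± 271 to 1245 ± 201 CPM, and Grn, the progranulin gene, rose from 455 ± 193 to 1167 ± 102 CPM. Both calls were lost with the lane series term.

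Of 22 FOXO targets and quiescence genes 7 fell (31.8%, against 4.92% of all tested genes) and 4 rose (18.2%, against 10.5%). Without day 14 library 2 the counts were 5 and 1. Foxo1, the factor that sustains resting T cells, stood at 695, 718, 673 and 464 CPM and then at 349, 283 and 207 CPM (log2 fold change -1.19 ± 0.20, edgeR adjusted p = 0.00111). It kept its call with the lane series term. Tob1, an antiproliferative gene, fell by 1.91 and Irs2, an adaptor of insulin signalling, rose by 0.85, and neither was called with that term. Of 15 genes of the TGF-beta pathway 1 rose (6.7%, against 10.5% of all tested genes). It was the feedback inhibitor Pmepa1, from 9.42, 6.05, 9.37 and 12.9 CPM to 58.6, 113 and 124 CPM (log2 fold change 3.38 ± 0.30, edgeR adjusted p = 2.32e-05), also with the lane series term.

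**Figure D3:**
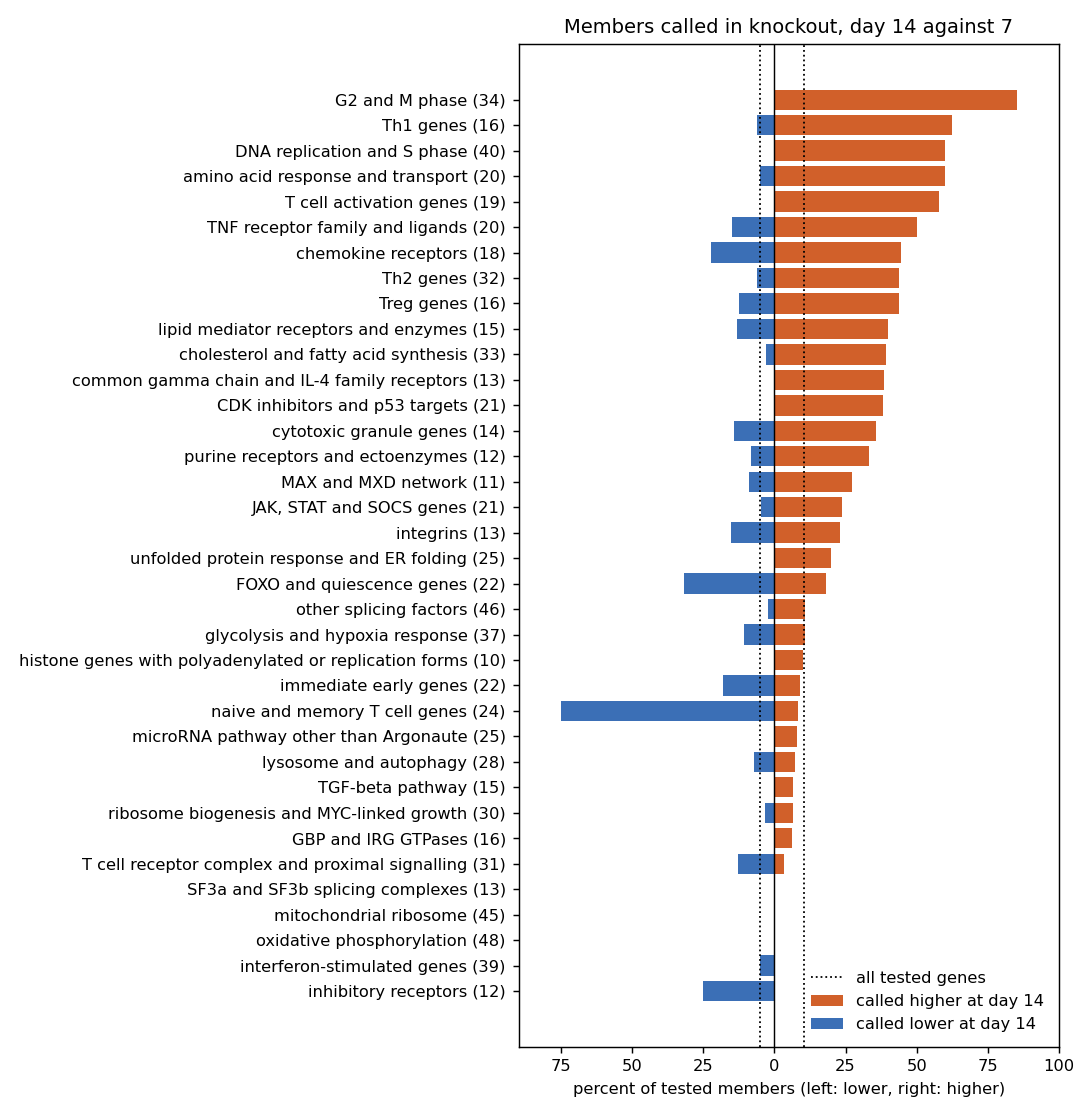
Percent of the tested members of each pathway list with at least 10 tested genes called higher (orange, right) or lower (blue, left) at day 14 in knockout, with the number tested in brackets; dotted lines mark the 10.5% and 4.92% of all tested genes. Of the lists shown, G2 and M phase genes have the highest share called higher (29 of 34), and naive and memory T cell genes the highest share called lower (18 of 24).

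The level of the interferon list at day 7 turned on 1 library. Interferon-stimulated genes are the antiviral genes that interferons switch on. Of 39 tested, 0 rose and 2 fell (5.1%, near the 4.92% of all tested genes), with a median log2 fold change of -0.87. Their summed level ran from 3181 to 15340 CPM at day 7 and from 4458 to 5942 CPM at day 14, and the 15340 CPM belonged to day 7 library 4. Without that library the median was 0.02, with 2 genes higher and 1 lower. The 2 genes that fell were Slfn1 (1105 ± 344 to 539 ± 78.6 CPM) and Ifi203 (35.2 ± 17.8 to 10.4 ± 5.24 CPM), both of families with close paralogs. Both calls were lost without day 14 library 2 or 3 (up to 0.0605 and 0.145, edgeR adjusted p), that of Ifi203 also without day 7 library 3 or 4 and that of Slfn1 with the lane series term. Of 16 interferon-induced GTPase genes 1 rose (6.2%, against 10.5% of all tested genes), a call that ended without any 1 knockout library except day 7 library 4 and with the lane series term. Of 6 tested MHC class II genes H2-Aa fell from 84 reads in all at day 7 to 1 read at day 14, also with the lane series term. Scaled for depth, the ratio of day 7 to day 14 was 76.2, with an exact 95% interval from 13.3 to 3044 that covers counting error only. H2-Ab1, at 21.1, 17.4, 35.3 and 99.5 CPM and then 8.92, 9.29 and 21.1 CPM, was not called (edgeR adjusted p = 0.0709), and day 7 library 4 was again the highest.

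None of the 4 Argonaute genes was called by edgeR. Ago2 stood at 106, 102, 89.0 and 78.2 CPM at day 7 and at 90.4, 70.1 and 71.1 CPM at day 14 (log2 fold change -0.28 ± 0.17, edgeR adjusted p = 0.306), with overlap. Ago3 stood at 1.98 ± 0.206 and 1.42 ± 0.188 CPM (adjusted p = 0.407) and Ago4 at 3.17 ± 0.323 and 3.93 ± 1.34 CPM (adjusted p = 0.764) by edgeR, and Ago1 was not called (adjusted p = 0.262, on 0 and 2 reads). Of 25 other genes of the microRNA pathway 2 rose (8%, against 10.5% of all tested genes), among them Tarbp2, a partner of Dicer (18.7 ± 0.471 to 37.2 ± 9.12 CPM). Neither was called with the lane series term, and 1 was left without day 7 library 1 or 2 or day 14 library 2 or 3. None of 13 genes of the SF3a and SF3b complexes, which recognise the branch point of introns, was called by edgeR. Sf3b3, named in the series title, stood at 588, 496, 335 and 232 CPM and then at 315, 636 and 299.9 CPM (log2 fold change 0.01 ± 0.32, edgeR adjusted p = 0.986). Its sign turned under several settings, and the spread within each day was wide. Nisch, the imidazoline receptor gene, stood at 255 ± 50.1 and 228 ± 61.3 CPM (adjusted p = 0.75, edgeR), with a negative log2 fold change that turned positive with the lane series term. Of 46 other splicing factors 5 rose (10.9%, near the 10.5% of all tested genes) and 1 fell. The counts were 2 and 1 without day 14 library 2, 0 and 1 without day 14 library 3, 8 and 1 without day 14 library 1 and 3 and 1 without day 7 library 4. Srsf7 rose from 41.3 ± 5.67 to 196 ± 118 CPM, a call lost without day 14 library 3 (0.0526) and with the lane series term, and Srsf5 fell from 128 ± 18 to 45.3 ± 14.3 CPM, with that term as well. Of 10 histone genes 1 rose (10%, near the 10.5% of all tested genes). It was H2afx, the DNA damage variant, from 54.8 ± 4.98 to 137 ± 35.2 CPM, also with the lane series term. In the list 2 or 3 calls were made without day 7 library 4 or day 14 library 1 or 3.

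Receptors for lipid and purine mediators changed in both directions. Of 15 lipid mediator genes 6 rose and 2 fell (4 and 1 without day 14 library 2, 3 and 1 without day 14 library 3). The 6 and 2 are 40% and 13.3% of the list, against 10.5% and 4.92% of all tested genes. Ptger3, a receptor for prostaglandin E2, stood at 0.473, 0.0338, 0.094 and 0.266 CPM and then at 10.4, 19.0 and 24.4 CPM (log2 fold change 6.41 ± 0.79, edgeR adjusted p = 0.000149). Ltb4r1, a leukotriene B4 receptor, rose from 10.3 ± 7.13 to 85.0 ± 38.9 CPM, and Cysltr1, a cysteinyl leukotriene receptor, from 5.20 ± 2.15 to 40.5 ± 15.2 CPM. Of 12 purine receptors and enzymes 4 rose (33.3%, against 10.5% of all tested genes) and 1 fell (8.3%, against 4.92%). Adora2b, an adenosine receptor, stood at 1.12, 0.811, 0.783 and 1.95 CPM and then at 8.04, 14.5 and 18.2 CPM. Adk, the kinase that clears adenosine, stood at 489.7, 746, 729 and 601 CPM and then at 176, 47.8 and 58.3 CPM (log2 fold change -2.77 ± 0.43, edgeR adjusted p = 0.000764). P2rx7, an ATP-gated channel, and Entpd1, or CD39, rose by 1.24 and 1.54. With the lane series term Ptger3, Ltb4r1, Adora2b and Adk remained called, and Cysltr1, P2rx7 and Entpd1 did not.

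Markers of other cell types were mostly low. Of B cell markers, Ighm was abundant (2862 ± 194 and 1889 ± 504 CPM) and its call (edgeR adjusted p = 0.0433) ended without any 1 knockout library except day 14 library 1 (up to 0.201), while Ms4a1 had 1 read in all at day 7 and 0 at day 14, and Pax5 and Ebf1 had 0 throughout. Of the 5 tested B cell markers 4 fell (80%, against 4.92% of all tested genes) and 1 rose (20%, against 10.5%). Among those that fell was Cd79a (80 to 6 reads). The 5 calls became 1 without day 14 library 3, 2 without day 14 library 2, 3 without any 1 day 7 library, and 0 with the lane series term. Of 9 myeloid markers 2 rose (22.2%, against 10.5% of all tested genes) and 1 fell (11.1%, against 4.92%). In all 2 calls were left without day 14 library 2 or 3. Ctss, the most abundant of these markers, was not low, at 113 to 259 unscaled CPM at day 7 and 211 to 298 at day 14. Mgl2 had 775 and then 166 reads, and Ly6c2 1257 and then 124. Adgre1 rose from 1.39 ± 0.425 to 18.7 ± 5.71 CPM, with Itgam, Itgax and Mpeg1 at 0 reads in all 7 libraries, Csf1r at 5 and then 0 reads, and Lyz2 at 83 and then 4. Adgre1 kept its call with the lane series term. Of 7 mast cell markers 2 rose and 2 fell (28.6% each, against 10.5% and 4.92% of all tested genes). In all 2 calls were left without day 7 library 4 or day 14 library 2. Il1rl1, also the IL-33 receptor of Th2 cells, rose from 8.87 ± 5.39 to 71.3 ± 21.6 CPM (not called with the lane series term, adjusted p = 0.282), Mcpt4, Mcpt8 and Tpsab1 had 0 reads, and Cpa3, the most abundant, ran from 43.6 to 83.3 and from 13 to 135 unscaled CPM. Hba-a1, which has a near-identical copy, rose from 3 reads to 64, a ratio of 23.5 with an exact 95% interval from 7.70 to 117, and was not called with the lane series term (adjusted p = 0.0765). Cd8b1 and Trdc, a chain of the gamma delta receptor, were not called, nor was the endothelial marker Pecam1 (95.6 ± 27.7 and 60.7 ± 17.9 CPM). The part of such cells in the results above was not tested.

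Transcripts of liver cells were found at day 7 and hardly at day 14. Of 24 tested genes of a list of liver-expressed genes, chosen after the data were seen, 22 fell and 0 rose (median log2 fold change -6.56), and 18 falls remained with the lane series term. Most of them had 0 reads in the knockout day 14 libraries. Such genes passed the filter through the day 7 libraries and could only fall, so these counts describe the list and test nothing. Apoa1 (ENSMUSG00000032083, chr9:46228580-46230466), the main protein of high-density lipoprotein, stood at 6.20, 4.19, 4.76 and 5.31 CPM at day 7 and had 0 reads in all day 14 libraries, at least 163-fold lower when the day 14 group is given a floor of 3 reads. Alb, the albumin gene, stood at 1.72, 2.20, 1.85 and 2.66 CPM and then at 0 reads, at least 67.7-fold lower. The summed level of 30 such genes was 21.9 to 24.2 unscaled CPM in the knockout day 7 libraries, with 29 or 30 genes detected in each, and 0.115 to 0.599 CPM at day 14, with 1 to 3 detected. The same split held in wild type, at 20.3 to 34.7 CPM at day 7 and 0.354 to 0.858 CPM at day 14, and in both lane series.

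**Figure D4:**
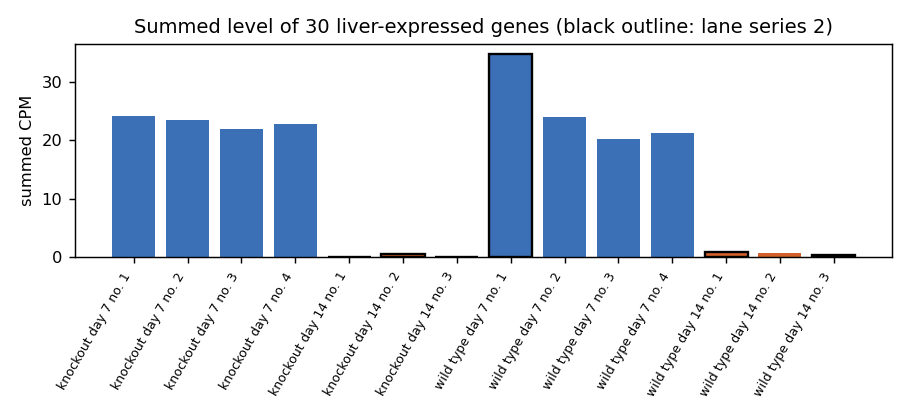
Summed level of 30 liver-expressed genes in each of the 14 libraries, in CPM of unscaled totals, with blue bars for day 7, orange bars for day 14 and a black outline for the second lane series. All 8 day 7 libraries lie between 20.3 and 34.7 CPM and all 6 day 14 libraries between 0.115 and 0.858 CPM, in both lane series.

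Most of these changes had the same direction in wild-type cells. In wild type 2375 genes were called over the same days (20.5%; 1525 or 13.2% higher and 850 or 7.33% lower). Of the 1792 knockout calls, 1202 were called in the same direction in wild type (67.08% of the knockout calls and 50.61% of the wild-type calls), 5 in the opposite direction, and 96.32% had the same sign. The groups share no libraries. Over the knockout calls the median size of the log2 fold change was 1.85 in knockout and 1.57 in wild type. These genes were chosen by their change in knockout, which favours large values there. The 2 medians therefore cannot show which genotype changed more. The list counts in wild type were 16 higher of 34 for G2 and M phase, 10 of 40 for S phase, 20 of 33 for cholesterol and fatty acid synthesis, and 19 lower of 24 for naive and memory T cell genes. Whether such counts differ between genotypes was not tested.

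The difference between the 2 time courses was tested gene by gene as an interaction, and 10 genes were called (0.0863%; 7 or 0.0604% with a more positive change in knockout, 3 or 0.0259% with a more negative one; 924 had an unadjusted p under 0.05). The count was 380 without wild-type day 14 library 3, 16 without knockout day 14 library 1, 10 without knockout day 7 library 4, and 1 to 4 without any other single library. Txk (ENSMUSG00000054892, chr5:72695978-72752777), a kinase of the Tec family in T cells, fell in both, from 44.3, 45.9, 34.2 and 27.5 CPM to 17.2, 18.9 and 12.8 CPM in knockout and from 54.5 ± 10.5 to 2.39 ± 0.208 CPM in wild type. The fall was smaller in knockout by 3.29 ± 0.35 on the log2 scale (edgeR adjusted p = 0.00169). Txk kept this call without each knockout library in turn (up to 0.00998) and with the lane series term (0.0140). Gramd3 (difference 2.21, adjusted p = 0.0152), P2ry1 (2.15, 0.037) and Ms4a6b (2.42, 0.037) also fell less in knockout by edgeR. Zbtb8a rose from 0.227 ± 0.174 to 4.32 ± 2.70 CPM in knockout and stood at 6.37 ± 0.768 and 7.00 ± 1.74 CPM in wild type (difference 4.13, edgeR adjusted p = 0.037). Kit rose in knockout, from 2.11, 1.79, 0.533 and 0.133 CPM to 9.45, 9.59 and 2.02 CPM with overlap, and fell in wild type (difference 8.23, edgeR adjusted p = 0.037). Kit's knockout call itself (adjusted p = 0.0316) ended without day 7 library 3 or 4 or day 14 library 1 or 2 (up to 0.109) and with the lane series term (log2 fold change 1.04, adjusted p = 0.69). The interaction calls of Gramd3, P2ry1, Ms4a6b, Zbtb8a and Kit were each lost without at least 1 knockout library (up to 0.0601, 0.0886, 0.11, 0.11 and 0.101) and with the lane series term.

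**Figure D5:**
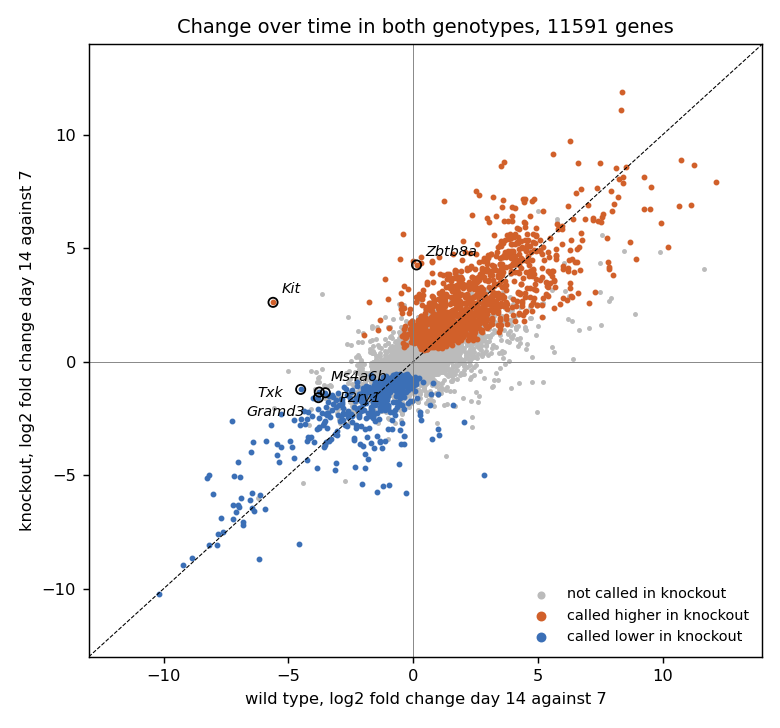
Log2 fold change of day 14 against day 7 for 11591 genes, in wild type (horizontal) and knockout (vertical); orange and blue points are genes called higher and lower in knockout, grey points are not called, the dashed line marks equal change and rings mark 6 genes called in the interaction. Most called genes lie at the lower left and upper right, 96.32% with the same sign in both genotypes, and Kit lies in the upper left.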

How the data were processed

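For every library the authors deposited a read count, an RPKM value and a width for each of 22598 genes. Reads were aligned with GSNAP 2013-11-01 to GRCm38, per the submitters' processing notes, and neither counting tool nor annotation is named there (not given in the sources used here). The deposited RPKM divides by the deposited width, a coding length (86.7% are multiples of 3), and was used only for checks of the libraries. Symbols and coordinates came from GENCODE vM21 (22457 identifiers matched).

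Counts were tested with edgeR 4.0.16 (R 4.3.3): filterByExpr, TMM scaling, a robust quasi-likelihood fit of all 14 libraries with a separate mean for each group (common coefficient of variation 0.354), and Benjamini-Hochberg adjustment over 11591 genes, called under 0.05. On simulated counts for the knockout comparison (11451 genes, 200 changed), the test found 14% of the 2-fold and 72% of the 4-fold changes and called 7 unchanged genes. In the data 1792 genes were called, and the adjusted cutoff depends on how many genes change. These shares therefore need not hold for the data. limma 3.58.1, DESeq2 1.42.0, other scalings and filters, and leaving out libraries were alternatives. Named genes were 11 fixed ones, the 12 highest and 12 lowest fold changes with at least 5 CPM and no overlap, up to 5 called members per list with the smallest adjusted p, the most abundant marker of each other cell type, and up to 6 interaction genes. Further genes (Tbx21, Foxp3, Prf1, Il4ra, Il2rg and markers given by their reads) were named after their values were seen. Members and lists were chosen with earlier results of these data known. Naive cells were not analysed here. Some named genes are not reported here.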

Additional observations from a re-analysis of the deposited data

Results flagged for a closer look

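Knockout day 7 library 4 stood far from the other 3 knockout day 7 libraries in 14 of the genes named above. It was the highest of the 4 in Pilrb1 (0.443 CPM), Ms4a4c (52.6), Ccl5 (68.8), Zbtb8a (0.487), Cdc20 (49.2), Cdca8 (12.1), Aurka (17), Mxd3 (3.19), Tnfrsf9 (55.4), Tm7sf2 (14.8), Mthfd2 (55.3) and Asns (36.1), and the lowest in Gata3 (484) and Cxcr3 (1.73). Its median over the G2 and M phase list, 0.74 on the log2 scale, also lay apart. Chance alone flags about 1 in 20 groups of libraries. The rule was run on every named gene of the contrast, 143 of them called, so several of these flags are expected by chance. Pilrb1 and Zbtb8a also lie near the floor at day 7.

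The change over time differed between the genotypes in 6 named genes by the edgeR interaction test. The difference, knockout minus wild type on the log2 scale, was 3.29 for Txk, 2.21 for Gramd3, 4.13 for Zbtb8a, 2.15 for P2ry1, 2.42 for Ms4a6b and 8.23 for Kit.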

How the results depend on the processing

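For day 14 against day 7 in knockout, the count of 1792 called genes became 2706 with limma-voom sample weights, 871 with a replicate block, 370 with the lane series term, 3363 after removing the trend over GC content and length and 1014 against a fold threshold of 1.5. Without single libraries it ran from 1061 to 2335. The interaction count of 10 became 163 with DESeq2, 471 with sample weights, 0 with the replicate block (496 genes with an unadjusted p under 0.05), 1 with the lane series term, 78 with the GC and length trend removed and 1 against the fold threshold, and ran from 1 to 380 without single libraries. The wild-type count of 2375 became 4581, 1129, 3844 and 1348 with sample weights, the replicate block, the GC and length trend removed and the fold threshold. Deviations of same-numbered knockout libraries from their group means correlated at -0.337, 0.023 and 0.015, and those of differently numbered ones at -0.392 to 0.555. Deviations from the mean of a small group depend on one another. These values therefore cannot decide whether replicate numbers pair the libraries.

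The near-zero change of Sf3b3 (0.01) turned to -0.00166 with DESeq2 and -0.00167 with its size factors, -0.0174 without a filter, -0.23 with the replicate block, -0.0915 with the GC and length trend removed, -0.00601 over the knockout libraries alone, and ran from -0.43 to 0.234 without single libraries, with -0.0178 without day 7 library 4 and day 14 library 1 together. With the lane series term Nisch turned to 0.17 and Gata3 to 0.18. Without single libraries Nisch ran from -0.377 to 0.0141, the top without day 14 library 3, and Gata3 from -0.185 to 0.0408, the top without day 14 library 1. Ago1, on 2 reads, ran from 0 without day 14 library 3 to 3.09 without day 7 library 4 and day 14 library 1 together. The causes were not tested. Of the 143 named genes called, 76 stayed called with the lane series term, 116 with the replicate block and 134 to 142 without single knockout libraries, and none changed sign.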
